A study of Arabidopsis thaliana with 6 samples.

Results

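Jasmonate responses in Arabidopsis leaves are carried by a small set of basic helix-loop-helix (bHLH) transcription factors, and transcript levels of 10 of their genes were compared between wild type (WT) and the *fer* mutant. The genes were chosen by locus identifier as 3 subfamilies, namely the activators MYC2, MYC3 and MYC4, the repressors JAM1, JAM2 and JAM3, and the clade of NAI1 (bHLH20) with bHLH18, bHLH19 and bHLH25. Of the 10 genes, 8 were among the 20754 genes of the deposited table. The rows of bHLH18 (AT2G22750) and bHLH25 (AT4G37850) were not in the table, so these genes are not analysed here. The samples were rosette leaves from 3 libraries of WT (accession Columbia-0) and 3 libraries of *fer* (*fer-4*, a T-DNA insertion allele of the receptor kinase gene FERONIA, FER), which the series describes as biological replicates and which had no treatment. Plants were 4 weeks old by the labels, which give growth in short days at 22 °C after germination in constant light. The study's text gives long days and a slightly older age. The series holds 1 mutant allele.

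All these factors bind DNA at G-box-like hexamers. MYC2, MYC3 and MYC4 activate jasmonate responses and, together with MYB factors, glucosinolate synthesis. In the absence of the hormone they are held by JAZ proteins, which recruit the adaptor NINJA and the corepressor TPL. JAM1, JAM2 and JAM3 are relatives that bind the same elements and repress the same responses. NAI1 is required for ER bodies, compartments filled with beta-glucosidases, and in roots NAI1, bHLH18, bHLH19 and bHLH25 take part in the jasmonate-triggered breakdown of FIT, the main regulator of iron uptake.

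Of the 8 genes, 6 were called, against 14.6% of all genes in the table, where called means an adjusted p under 0.05 in limma over all 20754 genes. In *fer*, 5 were higher (MYC2, MYC3, JAM1, JAM3 and NAI1), 1 was lower (MYC4) and 2 were not called (JAM2 and bHLH19). Over all genes, 10.0% were called higher in *fer* and 4.52% lower, that is 2083 and 938 genes, against 1353 and 1450 under quantile normalization and 1536 and 1413 under median of ratios scaling, where the same number of the 8 genes, 6, was called. The ranges of the genotypes did not overlap for the same 6 genes, 5 of them with all *fer* libraries above all WT libraries, as was found for 20.8% of all genes, and 1 with all *fer* libraries below, as was found for 10.5%. The called increases ran from 1.49-fold for MYC3 to 2.28-fold for NAI1 as ratios of the means, and over all genes the median log2 fold change was 0.10. Rosette leaves are a mixture of cells, so that a change in the number of cells that use a gene and a change in RNA per cell cannot be told apart.

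The proximal promoters of the NAI1 pair and of the most abundant and the only decreased MYC gene are shown first, because they differ in the hexamers they hold. Each run is the 300 bases before the annotated gene start, read from RefSeq TAIR10.1 on the strand of the gene. Capitals mark matches on either strand to the G-box CACGTG, its variant CACATG, and AACGTG, an element bound by jasmonate-responsive MYC factors of tomato. In these runs no match overlapped another. The NAI1 run is chr2:9684262-9684561, plus strand, the bHLH19 run is chr2:9677544-9677843, plus strand, the MYC2 run is chr1:11801408-11801707, minus strand, and the MYC4 run is chr4:9935686-9935985, minus strand.
NAI1: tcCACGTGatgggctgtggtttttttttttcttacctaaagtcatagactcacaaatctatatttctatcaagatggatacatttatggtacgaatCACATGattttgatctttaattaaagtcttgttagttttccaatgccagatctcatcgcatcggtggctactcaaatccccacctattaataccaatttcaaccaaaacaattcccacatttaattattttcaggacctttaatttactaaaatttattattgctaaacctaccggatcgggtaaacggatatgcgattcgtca
bHLH19: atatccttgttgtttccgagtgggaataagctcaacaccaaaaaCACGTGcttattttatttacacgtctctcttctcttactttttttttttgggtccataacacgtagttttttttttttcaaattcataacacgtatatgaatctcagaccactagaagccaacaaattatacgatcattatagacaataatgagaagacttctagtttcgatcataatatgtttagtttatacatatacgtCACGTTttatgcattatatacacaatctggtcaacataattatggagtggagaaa
MYC2: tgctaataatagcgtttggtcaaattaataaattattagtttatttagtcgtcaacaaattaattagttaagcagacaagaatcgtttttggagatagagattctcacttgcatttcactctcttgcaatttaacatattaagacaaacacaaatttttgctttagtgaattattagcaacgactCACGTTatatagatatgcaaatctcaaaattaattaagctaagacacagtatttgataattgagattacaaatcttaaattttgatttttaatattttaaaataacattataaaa
MYC4: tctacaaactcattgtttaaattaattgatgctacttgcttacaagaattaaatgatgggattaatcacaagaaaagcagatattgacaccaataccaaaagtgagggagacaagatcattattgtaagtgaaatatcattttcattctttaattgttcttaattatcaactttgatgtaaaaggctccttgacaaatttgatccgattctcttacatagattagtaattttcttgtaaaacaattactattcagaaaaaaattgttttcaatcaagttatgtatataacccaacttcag
The G-box starts 298 bases before the NAI1 gene and 256 bases before bHLH19. NAI1 also holds CACATG at 204 bases, bHLH19 holds AACGTG on the other strand at 55 bases, and MYC2 holds the same element on the other strand at 115 bases. MYC4, MYC3, JAM1, JAM2 and JAM3 had no match in this window. Among 19933 promoters of protein-coding genes of the table, CACGTG was found in 8.1%, CACATG in 13.1%, AACGTG in 8.61% and any of the 3 in 26.5%. A match describes letters only and says nothing about which factor binds there.

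Libraries were checked by the mutated gene. FER (AT3G51550) had 265, 266 and 286 normalized reads in the WT libraries and 5.95, 6.63 and 10.3 in the *fer* libraries, and its log2 fold change was -5.02 ± 0.22 (SE; limma adjusted p = 7.2e-12). All libraries had been brought to a common total of 4523902 to 4526129 normalized reads, so the sequencing depth of each single library is unknown. The study's methods give only an average read count per sample. Column names give genotype alone, so libraries are numbered here in the order of the table. The 4 mesophyll markers RBCS1A, LHCB1.1, CA1 and GLDP1 summed to between 148578 and 153426 normalized reads in WT, while the root markers PIN2, COBL9 and IRT1 were not in the table and CASP1 had at most 9.18 normalized reads. All 3 seed markers and the flower marker AP3 were not in the table either. Of the other flower markers, AG was called lower in *fer*, at 3.399, 3.01 and 3.23 normalized reads in the WT columns and at most 0.034 in the *fer* columns (limma adjusted p = 0.033), and PI had at most 2.01 normalized reads in WT and 1.90 to 7.25 in *fer* and was not called. The mesophyll markers were called lower in *fer*, 4 of 4, with sums between 107306 and 112031, and their part in the results below was not tested. Of the guard and myrosin cell markers FAMA, MYB60, TGG1 and TGG2, 0 of 4 were called in limma, with 0 of 4 at an unadjusted p under 0.05.

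MYC2 (AT1G32640), the principal activator of jasmonate-responsive genes, was the most abundant of the 8 transcripts in both genotypes. It had 1250.4, 763 and 774 normalized reads in WT columns 1, 2 and 3 and 1516, 1685 and 1519 in *fer* columns 1, 2 and 3. The *fer* libraries lay close together and above every WT library, while WT column 1 stood well above the other WT columns. The means were 929 ± 278 and 1573 ± 96.4 (SD, n = 3). The log2 fold change was 0.80 ± 0.13 (SE; 95% interval 0.52 to 1.08; limma adjusted p = 0.00032). Without limma's trend of the spread on the level the call was lost (adjusted p = 0.11). Without WT column 1 the log2 fold change was 1.03, and MYC2 was called whichever of the 6 libraries was left out. In *fer* the MYC2 level was at or above that of 98.1% of the genes in the table. MYC2 lies on chromosome 1 (11798119 to 11801407, minus strand, TAIR10.1), and 3241 of its bases, including the last 500, overlap annotated exons of AT1G32630 on the other strand. Whether reads were counted by strand is not stated, and the bearing of this overlap on the values of either gene was not tested. AT1G32630 had 73.4 to 77.8 normalized reads in WT and 82.1 to 102 in *fer*, and its log2 fold change was 0.30 ± 0.16 (SE; limma adjusted p = 0.24).

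MYC3 (AT5G46760) and MYC4 (AT4G17880), which act redundantly with MYC2, moved in opposite directions. MYC3 had 181, 190.1 and 225 normalized reads in the WT columns and 309.6, 291 and 288 in the *fer* columns. Its log2 fold change was 0.58 ± 0.11 (SE; 95% interval 0.34 to 0.82; limma adjusted p = 0.0015, and 0.070 without the trend). MYC4 had 324, 353 and 411 normalized reads in the WT columns and 283, 262 and 260.0 in the *fer* columns. All *fer* libraries of MYC4 lay below all WT libraries, and it was the only one of the 8 genes with a decrease. Its log2 fold change was -0.43 ± 0.11 (SE; 95% interval -0.65 to -0.20; limma adjusted p = 0.011). That call was lost without WT column 3 (log2 fold change -0.33, adjusted p of 0.071 in limma), without *fer* column 3 (-0.41, 0.063) and without the trend (0.14). It was kept under median of ratios scaling, which lowers all *fer* values relative to WT, with a log2 fold change of -0.52 (limma adjusted p = 0.0027).

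The ratio of MYC3 to MYC4, chosen after the members' values were seen, had little spread within a genotype. It was 0.558, 0.539 and 0.548 in the WT columns and 1.096, 1.108 and 1.107 in the *fer* columns. This ratio does not depend on how libraries were scaled to each other, and its SD was 0.0096 in WT and 0.0069 in *fer* (n = 3). Within a genotype the pair varied together. WT column 3 was the highest WT library for both, at 0.24 and 0.22 above the WT median on the log2 scale, and WT column 1 was the lowest, at -0.07 and -0.12. In *fer*, column 1 was the highest for both, at 0.09 and 0.11 above the *fer* median. The exact permutation test of the ratio (two-sided) gave p = 0.1, and with 3 libraries against 3 it cannot give less.

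MYC2 held a larger share of the MYC transcripts in each *fer* library than in each WT library. It made up 71.3%, 58.4% and 54.9% of the summed MYC2, MYC3 and MYC4 reads in the WT columns and 71.9%, 75.3% and 73.5% in the *fer* columns, a difference of 12.05 percentage points between the means (exact permutation test, two-sided p = 0.1, the smallest possible). WT column 1 came within 1 point of *fer* column 1, and without it the difference was 16.9 points. MYC4 held 24.9% ± 5.66 of the reads in WT and 12.6% ± 0.841 in *fer* (SD, n = 3; exact permutation p = 0.1), with 18.5%, 27.0% and 29.1% in the WT columns and 13.4%, 11.7% and 12.6% in the *fer* columns. The MYC3 share was 13.6% ± 2.95 in WT and 13.9% ± 0.851 in *fer* (exact permutation p = 0.9).

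**Figure D1:**
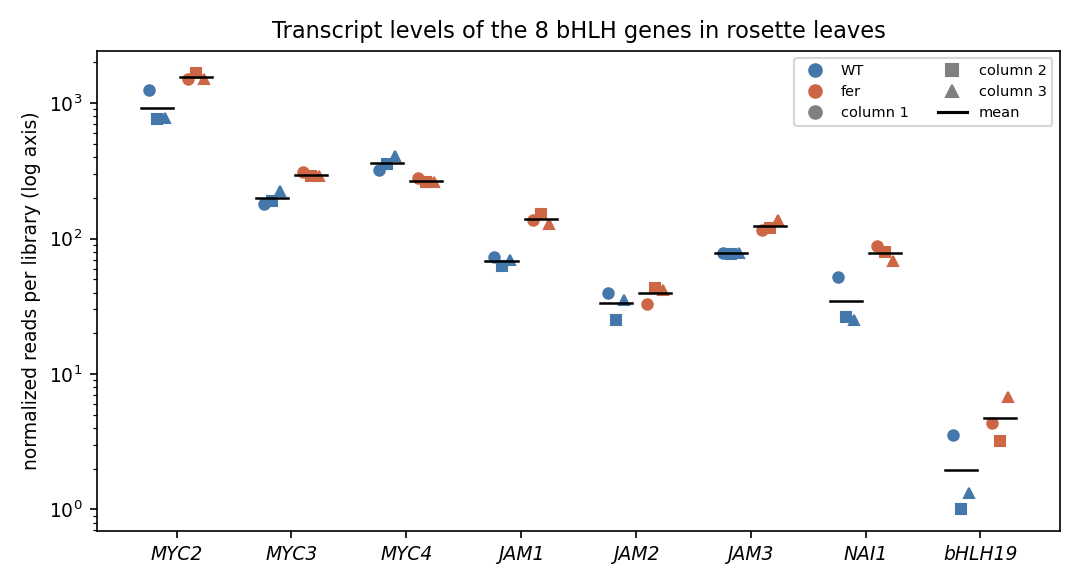
Normalized reads of the 8 bHLH genes in each library on a log axis, with WT in blue, *fer* in orange, 1 symbol per library column and black bars for the means (n = 3). The *fer* points lie above all WT points for MYC2, MYC3, JAM1, JAM3 and NAI1, and below them for MYC4. For JAM2 and bHLH19 the lowest *fer* point lies within the range of the WT points and the other *fer* points lie above it.

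**Figure D2:**
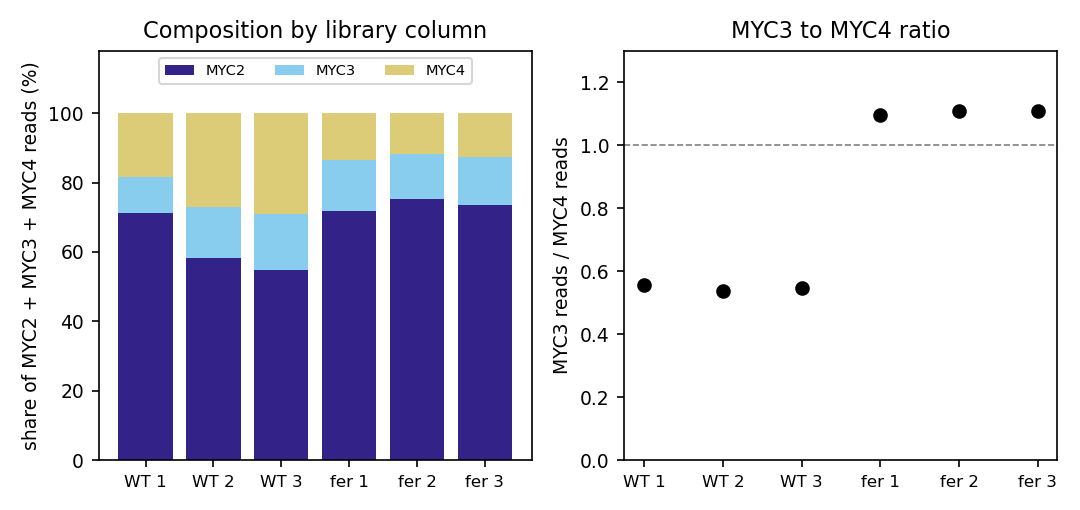
Left, share of MYC2, MYC3 and MYC4 in their summed reads (%) in each library column, and right, MYC3 reads divided by MYC4 reads in the same columns, with a dashed line at 1. The ratio lies between 0.539 and 0.558 in WT and between 1.096 and 1.108 in *fer*.

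Of the JAM repressors, JAM1 and JAM3 rose and JAM2 was not called. JAM1 (AT2G46510), also known as an abscisic acid-inducible bHLH factor, had 73.4, 62.4 and 69.6 normalized reads in the WT columns and 138, 153 and 129 in the *fer* columns. The lowest *fer* library was thus far above the highest WT library. Its log2 fold change was 1.02 ± 0.15 (SE; 95% interval 0.71 to 1.33), its limma adjusted p of 7.6e-05 was the smallest of the 8 genes, and under the alternative fits it stayed at or under 0.016. JAM3 (AT4G16430) had 78.0, 77.5 and 78.2 normalized reads in the WT columns and 116, 120.4 and 138 in the *fer* columns. The WT libraries of JAM3 were nearly identical, and the whole spread lay in *fer*. Its log2 fold change was 0.67 ± 0.15 (SE; 95% interval 0.36 to 0.97; limma adjusted p = 0.0036, and at most 0.040 under the alternative fits). The last 85 bases of JAM3 overlap NAR1 (AT4G16440) on the other strand, which had 10.4 to 14.2 normalized reads in WT and 12.7 to 27.0 in *fer*.

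JAM2 (AT1G01260) was the JAM gene with overlapping genotypes. It had 39.9, 25.2 and 35.04 normalized reads in the WT columns and 32.9, 43.3 and 42.1 in the *fer* columns, and its log2 fold change was 0.25 ± 0.25 (SE; limma adjusted p = 0.57). The 95% interval of -0.27 to 0.77 leaves room for a rise of the size found for JAM3. Of the summed JAM reads, JAM1 held 38.1% ± 0.277 in WT and 46.1% ± 3.70 in *fer*, and JAM2 18.4% ± 2.88 and 12.9% ± 1.25 (SD, n = 3; exact permutation p = 0.1 for each).

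The sums of activator and of repressor transcripts were both higher in each *fer* library than in each WT library (exact permutation p = 0.1 for each). MYC2, MYC3 and MYC4 together had 1755, 1306 and 1410 normalized reads in the WT columns and 2108, 2237 and 2067 in the *fer* columns, and the JAM genes together had 191, 165 and 183 and then 286.5, 317 and 309. The number of MYC reads per JAM read was 9.17, 7.91 and 7.71 in the WT columns and 7.36, 7.06 and 6.69 in the *fer* columns. It was thus lower in each *fer* library than in each WT library, by 1.23 between the means (exact permutation test, two-sided p = 0.1, the smallest possible). Reads of this method come from the 3′ ends of transcripts, so that levels of different genes were compared without division by length.

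**Figure D3:**
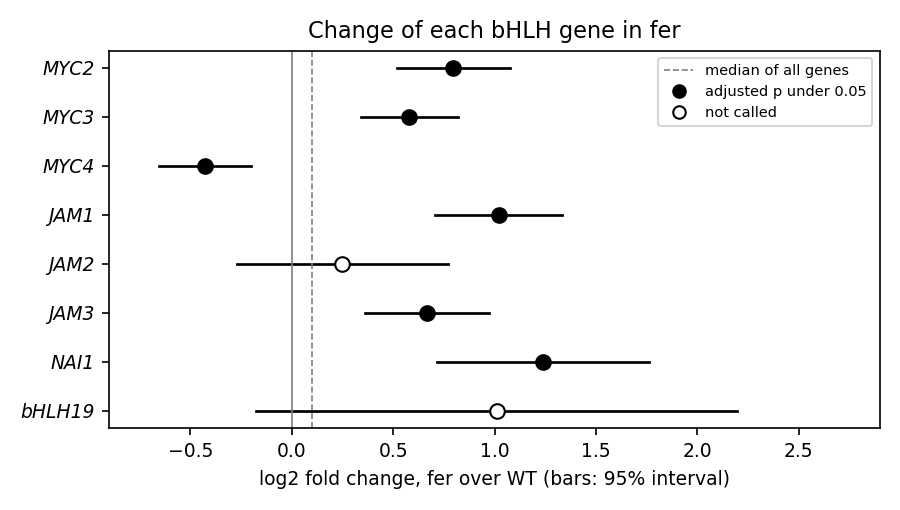
Log2 fold change of *fer* over WT for the 8 bHLH genes, with 95% intervals from limma (n = 3 per genotype) and a dashed line at the median of all genes, 0.10. Filled points mark the 6 genes with an adjusted p under 0.05, of which MYC4 alone lies below 0.

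NAI1 (AT2G22770) had the largest log2 fold change of the 6 called genes. It had 51.9, 26.2 and 25.1 normalized reads in the WT columns and 88.3, 79.1 and 67.9 in the *fer* columns. As for MYC2, WT column 1 stood apart from the other WT libraries but stayed below every *fer* library. The log2 fold change was 1.24 ± 0.25 (SE; 95% interval 0.71 to 1.76; limma adjusted p = 0.0019, and 0.078 without the trend). Without WT column 1 the log2 fold change was 1.57 (limma adjusted p = 0.00016), and the call held whichever of the 6 libraries was left out.

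NAI1, bHLH19 and bHLH18 lie side by side on chromosome 2, all on the plus strand, within 14941 bases (9671673 to 9686613, TAIR10.1) and with 0 annotated protein-coding genes between them. bHLH19 (AT2G22760) was far lower than NAI1 in every library. It had 3.53, 1.01 and 1.33 normalized reads in the WT columns and 4.35, 3.18 and 6.76 in the *fer* columns. The genotypes overlapped, and the log2 fold change of 1.01 ± 0.57 (SE; 95% interval -0.18 to 2.19) had an adjusted p of 0.27 in limma. At this level a value of about 1 to 7 normalized reads rests on few reads, and no difference was detectable. NAI1 held between 93.6% and 96.3% of the reads of this pair in WT and between 91.0% and 96.1% in *fer* (exact permutation p = 0.8). Windows of 50 bases at the 3′ end of the NAI1 transcript were matched to the genome exactly. Of 451 windows, 404 occur once, 0 occur elsewhere and 47 span an exon join, and for bHLH19 these numbers were 405, 0 and 46. The study's alignment allowed mismatches, and placement of reads with mismatches was not tested.

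The order of levels changed at 2 places between the genotypes. In WT it ran MYC2, MYC4, MYC3, JAM3, JAM1, NAI1, JAM2 and bHLH19, where only NAI1 and JAM2 overlapped their neighbour. In *fer* it ran MYC2, MYC3, MYC4, JAM1, JAM3, NAI1, JAM2 and bHLH19, where only JAM1 and JAM3 overlapped. MYC3 and MYC4 thus exchanged places without overlap in either genotype, and NAI1 came clear of JAM2.

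WT column 1 set much of the spread in WT for MYC2 and NAI1. Its deviation from the WT median on the log2 scale was 0.69 for MYC2, 0.96 for NAI1 and 0.96 for bHLH19, where values rest on few reads. For the other genes it was 0.18 for JAM2, 0.08 for JAM1, 0.00 for JAM3, -0.07 for MYC3 and -0.12 for MYC4. The same library was the highest of the WT columns for 10 of 12 JAZ genes, 10 of 11 genes activated through MYC2 and 13 of 14 ER body genes, whereas it was the highest for 36.3% of all genes. It was the highest for 1 of 6 genes of the ethylene and jasmonate branch and for 2 of 8 iron genes. The part of a difference between plants or libraries in this was not tested.

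**Figure D4:**
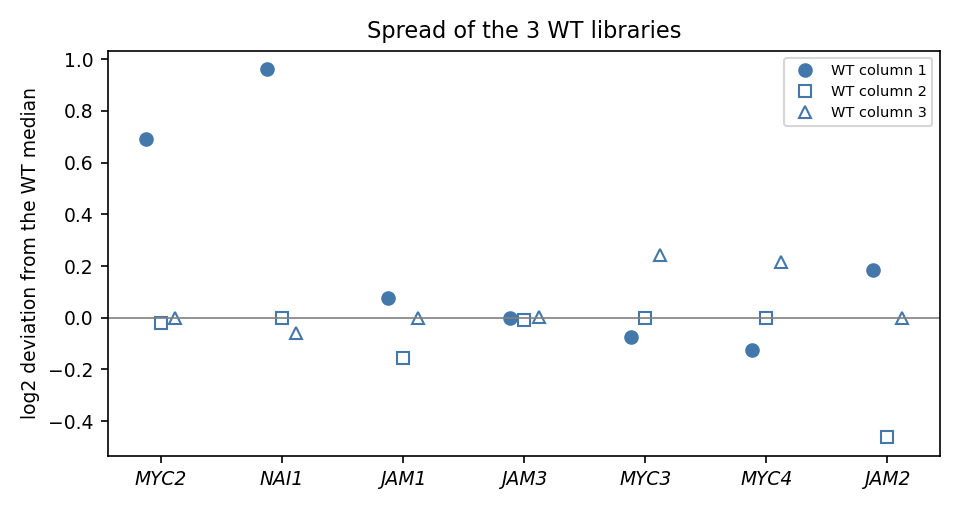
Log2 deviation of each WT library from the WT median for 7 of the bHLH genes, with WT column 1 filled and WT columns 2 and 3 open. The low gene bHLH19 is not drawn. WT column 1 stands at 0.69 for MYC2 and 0.96 for NAI1 and near 0 for JAM3.

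The genes that act with or under these factors were described from 8 lists with 68 of 70 genes in the table. Of the 68 genes, 47 were called, 46 higher in *fer* and 1 lower. The share called among all 20754 genes, with which the count of each list can be compared, was 14.6%, with 10.0% higher and 4.52% lower. The lists were compiled from known roles with results of these libraries in view, so their counts are not independent evidence. JAZ repressors, which hold the MYC factors and are themselves induced by them, were called higher for 8 of 12 genes, with a median log2 fold change of 1.13. JAZ10, JAZ5 and JAZ8 had log2 fold changes of 2.72, 1.95 and 1.91. JAZ8 was low, at up to 9.66 normalized reads, and of the fits without 1 library it was called only in that without WT column 2, with an adjusted p of 0.13 in limma without WT column 1. It was not called with a pseudocount of 0.1, under quantile normalization or without the trend. Without the trend 5 JAZ genes were called. JAZ1, JAZ3, JAZ11 and JAZ13 were not called.

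Of COI1, NINJA, TPL, MED25 and PUB10, which encode the jasmonate receptor, the JAZ adaptor, a corepressor, a Mediator subunit that MYC2 binds, and a ligase that targets MYC2, NINJA alone was called, 1 of 5. Its log2 fold change was 0.52 (limma adjusted p = 0.0034, and 0.077 without the trend). The receptor gene COI1 had 177, 177 and 183 normalized reads in the WT columns and 164, 201 and 166 in the *fer* columns.

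Genes that MYC2 is known to activate were called higher for 11 of 11 genes, with a median log2 fold change of 2.62. VSP1 and VSP2, which encode vegetative storage proteins, had log2 fold changes of 4.81 and 3.44, and the NAC factor gene ANAC055 one of 3.42. The ethylene and jasmonate branch that MYC2 is known to restrain was also higher, for 5 of 6 genes, with a median of 3.79. PDF1.2c, PDF1.2b and PDF1.2a, which encode nearly identical plant defensins whose reads may be split between copies, had log2 fold changes of 5.81, 5.49 and 5.38, and in each of them *fer* column 2 was the lowest *fer* library. ER body genes, listed as dependent on NAI1, were called higher for 13 of 14 genes, with a median of 2.74. The study describes many genes for ER body proteins as regulated by NAI1, and whether each listed gene depends on it was not tested here. JAL23, JAL35 and GLL23, which encode jacalin-related lectins and a GDSL lipase-like protein, had log2 fold changes of 4.08, 3.47 and 3.37, and BGLU21 was not called. The study compared ER body genes on these same libraries, so that their direction here is not independent evidence. By quantitative PCR in younger rosettes, the study also reported higher transcripts of NAI1, MYC2 and the ER body genes NAI2 and PYK10 in *fer*. In its *fer nai1* double mutant, NAI2 and PYK10 transcripts were lower than in *fer*, and MYC2 transcripts decreased as well. Its separate seedling libraries also had higher ER body transcripts in *fer*.

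Of MYC5, bHLH14, GL3, EGL3, TT8 and MYC1, other bHLH factors that JAZ proteins bind, 1 of 6 was called, TT8, at a log2 fold change of 2.81 (limma adjusted p = 3.5e-05). TT8, a regulator of anthocyanin and proanthocyanidin genes, had 4.03, 3.04 and 4.62 normalized reads in the WT columns and 22.9, 44.0 and 35.6 in the *fer* columns. GL3, a trichome regulator, was not called but had all *fer* libraries above all WT libraries, at 3.67, 5.03 and 1.98 normalized reads in the WT columns and 6.54, 9.43 and 7.68 in the *fer* columns. MYC5, the closest relative of MYC2, MYC3 and MYC4 in this list, had 54.6, 23.1 and 30.4 normalized reads in the WT columns and 21.0, 46.4 and 26.7 in the *fer* columns, with overlapping genotypes.

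The MYB partners of the MYC factors moved both ways. MYB76 and MYB34 were called higher, with log2 fold changes of 1.23 and 1.01, and MYB29 was called lower, with one of -0.48. MYB34 controls indole glucosinolate genes, and MYB76 and MYB29 control aliphatic ones. MYB76 stayed called when WT column 1 or *fer* column 1 was left out and not when any other library was, reaching a limma adjusted p of 0.11, and without the trend the adjusted p was 0.062 for MYB76 and 0.094 for MYB29.

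Among iron genes, 5 of 8 were called higher and the median log2 fold change was 0.84. bHLH39, bHLH101 and bHLH38, which encode factors induced by iron deficiency that act with FIT, had log2 fold changes of 1.39, 1.29 and 1.21. bHLH101 stayed called when WT column 1 or 3 was left out and not when any other library was, and its adjusted p was 0.20 in limma without the trend. Without *fer* column 3, 3 iron genes were called. FIT itself, mainly a root gene, was low in leaves, at 5.90, 8.04 and 7.80 normalized reads in the WT columns and 6.55, 1.14 and 5.73 in the *fer* columns, and was not called.

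**Figure D5:**
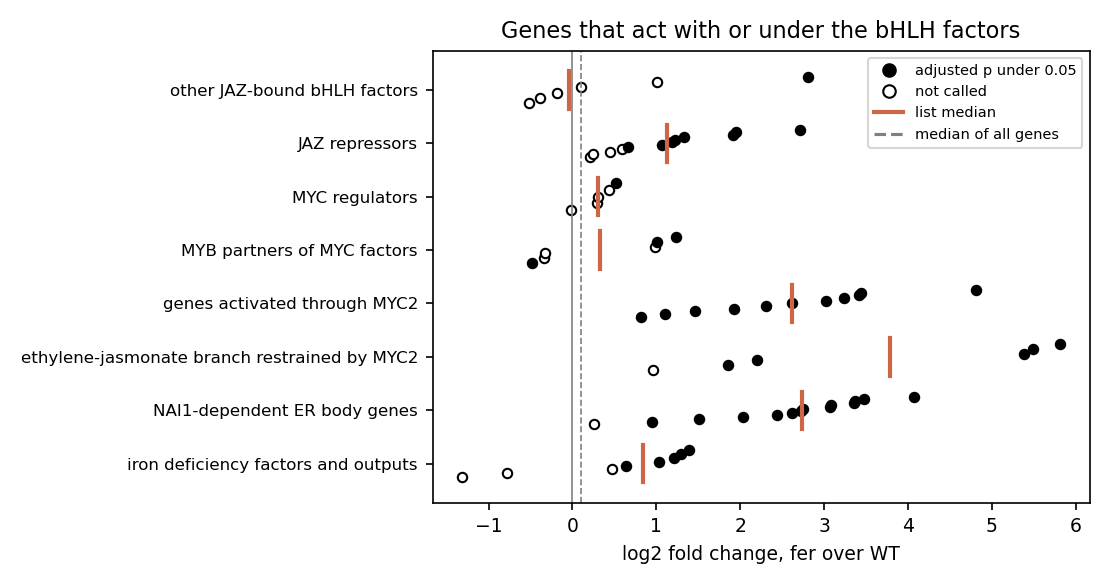
Log2 fold change of *fer* over WT for each gene of the 8 lists, with filled points for genes called in limma, orange bars for the list medians and a dashed line at the median of all genes, 0.10. The lists of genes activated through MYC2 and of ER body genes have medians of 2.62 and 2.74, while the other JAZ-bound bHLH factors have a median of -0.04.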

How the data were processed

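Transcripts were measured by 3′ end sequencing (QuantSeq) in 6 libraries of rosette leaves, 3 WT and 3 *fer*. Per the study's methods and the labels, the authors sequenced single-end reads of 50 bases, aligned them to TAIR10 using STAR and assigned them to genes by htseq-count (intersection-nonempty). The authors' table is named for TMM normalization, and per the labels edgeR was among their tools. Versions and the strand setting are not given in the sources used here. The deposited values are a signal of normalized reads, not whole counts. A further deposited column holds the authors' log2 fold change, which was not used.

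Values were analysed as log2(value + 1) with limma 3.58.1 in R 4.3.3 (lmFit, eBayes with a trend), two-sided, with Benjamini-Hochberg adjustment over 20754 genes. Fold changes of low genes are understated on this scale. Single ratios and shares were compared with exact permutation tests. The procedure was tested on simulated data whose spread followed the level of each gene alone. Calls that were lost without the trend are not covered by that test. Locations and promoters are from RefSeq TAIR10.1, and the files give no coordinates.

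Genes named are FER, all 10 members, up to 3 called genes with the largest change of each list, called genes against their list's median, and the 3 genes nearest in profile to MYC2 and NAI1. Other genes were named after their values were seen. The members and lists were chosen with earlier results of these data known, and the ratios and promoter motifs after the members' values were seen. Alternative fits left out each library, dropped the trend, used quantile normalization or median of ratios scaling, set the pseudocount to 0.1, kept genes with means of at least 5, or called at an adjusted p under 0.01.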

Additional observations from a re-analysis of the deposited data

How the results depend on the processing

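The 8 bHLH genes kept their direction under every setting tried. The number of called genes among them was 6 or 5 under all settings but limma without the trend, which called 2 (JAM1 and JAM3), and from 5 to 6 when a library was left out. The loss without the trend came with adjusted p-values of 0.070 to 0.14 for the other 4 genes, and the cause was not tested. FER had log2 fold changes from -5.23 to -4.88 when a library was left out. The pathway lists held 42 to 48 called genes when a library was left out and 39 to 47 otherwise. The MYC2 share differed by 8.74 to 16.9 percentage points, and the NAI1 share, not separated in the first place, by -1.83 to 0.76. As log2 ratios to the other genes these differences were 0.78 and 0.23. For NAI1 the sign was thus opposite to that of the share over all libraries, which differed by -0.83 points.

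Over all genes, 2083 were called higher and 938 lower, against 908 and 222 without the trend, 1190 and 492 at an adjusted p under 0.01, 1353 and 1450 under quantile normalization, 1413 lower under median of ratios scaling, and from 1287 to 1822 higher and 537 to 821 lower when a library was left out. The lowest counts were 1287 higher without *fer* column 3 and 537 lower without WT column 2. Median of ratios scaling and quantile normalization moved the median change over all genes from 0.10 to 0.011 and -0.04 on the log2 scale. bHLH19 fell out under the filter at a mean of 5. No paired analysis was possible because column names give genotype alone. The depth of each single library could not be recovered, which limits what can be said of bHLH19.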

Other observations

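Some genes followed MYC2 and NAI1 closely across the 6 libraries, by the distance between log2 profiles centred on their means, among 16035 genes with a mean of at least 10. Nearest to MYC2 were PUB26 (AT1G49780), which encodes a U-box ubiquitin ligase, MYB73 (AT4G37260) and AT1G32460, at distances of 0.13, 0.17 and 0.19 on the log2 scale. MYB73 had 476, 282 and 282 normalized reads in the WT columns and 497, 627 and 532 in the *fer* columns, so that WT column 1 stood apart for it as for MYC2.

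Nearest to NAI1 were LOX4 (AT1G72520), which encodes a lipoxygenase of jasmonate synthesis, UMAMIT40 (AT5G40240) and BAM5 (AT4G15210), which encodes a beta-amylase, at distances of 0.27, 0.29 and 0.31. LOX4 had 224, 107 and 130.3 normalized reads in the WT columns and 380.5, 339 and 319 in the *fer* columns. Likeness over 6 libraries of only 2 genotypes is a description of these profiles.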
